A study of Mus musculus with 8 samples.

Results

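The genes described here encode the enzymes that cut the extracellular matrix, the inhibitors that restrain them and the enzymes that modify and crosslink collagen and elastin. They were chosen by gene symbol alone, as the protein-coding genes whose symbols fit the patterns of 7 classes: 22 matrix metalloproteinases (Mmp), 4 tissue inhibitors of metalloproteinases (Timp), 19 Adamts proteases, 5 Adamts-like proteins, 5 lysyl oxidases (Lox and Loxl), 18 cathepsins (Cts) and 3 lysyl hydroxylases (Plod). The cathepsin pattern takes Cts followed by a single letter, so a cathepsin with a digit in its symbol is not included. These 76 genes were among 37046 features in the deposited files, and the rule itself uses no measured value.

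RNA was sequenced from white adipose tissue of wild-type female mice of the inbred C57BL/6J strain. The treated group received endostatin at 50 mg/kg by tail vein, the control group received PBS, and tissue was taken 2 h later from mice without food in the meantime. Each group had 4 libraries, of which replicates 1 and 2 were in batch 1 and replicates 3 and 4 in batch 2, and each was made from total RNA depleted of ribosomal RNA. The labels do not tie libraries to animals, so each p-value reflects the variation among these libraries, part of which may be technical.

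Endostatin is a fragment cut from collagen XVIII, the product of Col18a1, and cathepsin L and several metalloproteinases are known to release it. In fat, the matrix around each adipocyte is remodelled as the tissue expands and contracts. Metalloproteinases and Adamts enzymes cut collagens and proteoglycans outside the cell, Timp proteins bind their active sites, lysyl hydroxylases prepare collagen for crosslinking in the endoplasmic reticulum, and lysyl oxidases form the crosslinks. Cathepsins are mainly lysosomal proteases, some of which are also secreted. Many of these enzymes are made as inactive precursors, so their RNA level is not their activity.

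The libraries held 17197721 to 23786594 estimated counts in the endostatin group and 15826783 to 19221886 in the control group. The adipocyte gene Adipoq stood at 1951 to 2498 CPM in endostatin libraries and 1144 to 2659 CPM in control libraries, lowest in control 3. CPM is counts scaled to library size with TMM factors. The labels call the tissue epididymal although the mice are female, and the description of endostatin 4 repeats the read file stub of endostatin 3. Several libraries held transcripts of other tissues. TPM, the authors' level per transcript length, gave a sum over 9 oviduct and uterus genes of 543 in endostatin 4 and 767 in control 3. The other endostatin libraries held 10.6 to 46.4 TPM, highest in endostatin 1, and the other control libraries 9.02 to 18.5 TPM. The make-up of the high sums differed. Endostatin 4 held 298 TPM of Ltf and 174 TPM of Wfdc2, with Msx1 at 11.6 TPM and Pgr at 5.08 TPM. Control 3 held 87.9 TPM of Ltf, 270 TPM of Wfdc2, 162 TPM of Msx1 and 97.2 TPM of Pgr. Skeletal muscle genes gave sums of 129 to 148 TPM in endostatin libraries, and of 287 TPM in control 1, 486 TPM in control 4 and 88.0 to 97.6 TPM in the other control libraries. The sum of 5 adipocyte genes was lowest in control 3, at 12359 TPM. It was 23639.5 to 26978.5 TPM in the other control libraries and 18102 to 22736 TPM in endostatin libraries. Of these 5 genes, 2 had positive and 3 negative log2 fold changes, endostatin minus control.

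In the level per length, the lysosomal cathepsins stood above every other class. Their TPM made up 63.6% to 70.0% of the summed level of all 76 genes in endostatin libraries and 68.8% to 73.1% in control libraries. Ctsd, the aspartic protease cathepsin D, averaged 1227 ± 145 TPM in endostatin libraries and 1531 ± 357 TPM in control libraries (SD, n = 4 each). Ctsb, the cysteine protease cathepsin B, averaged 1337 ± 198 TPM in endostatin libraries and 1198 ± 138 TPM in control libraries. The order of these leading genes differed between libraries. Their ratio, Ctsb to Ctsd, lay at 0.939 to 1.33 in endostatin libraries and 0.511 to 0.997 in control libraries, so Ctsd led in every control library. Next came Ctsl (cathepsin L), at 334 to 481 TPM in endostatin libraries and 261 to 368 TPM in control libraries. Of the 76 genes, 58 had a mean over all libraries above 1 TPM, 38 above 10 TPM and 8 above 100 TPM.

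Among inhibitors Timp2 led, and the inhibitors together outweighed the metalloproteinases. Timp2 held 258 to 514 TPM in endostatin libraries and 216 to 287 TPM in control libraries, and Timp3 held 175 to 227 TPM in endostatin libraries and 168 to 191 TPM in control libraries. Timp1, low in resting tissue and inducible by cytokines, stayed at 2.81 to 6.52 TPM in endostatin libraries and 1.01 to 7.70 TPM in control libraries. The summed Timp level was 1.11 to 2.29 times the summed Mmp level in endostatin libraries and 1.15 to 1.73 times in control libraries. Mmp14 and Mmp2 led the metalloproteinases: Mmp14, which anchors in the membrane and activates the precursor of MMP2 with TIMP2 as adaptor, averaged 88.7 ± 50.9 TPM in endostatin libraries and 77.0 ± 41.0 TPM in control libraries. Mmp2, a gelatinase, averaged 78.7 ± 24.8 TPM in endostatin libraries and 66.5 ± 26.0 TPM in control libraries, and the difference between these genes is within their spread.

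**Figure D1:**
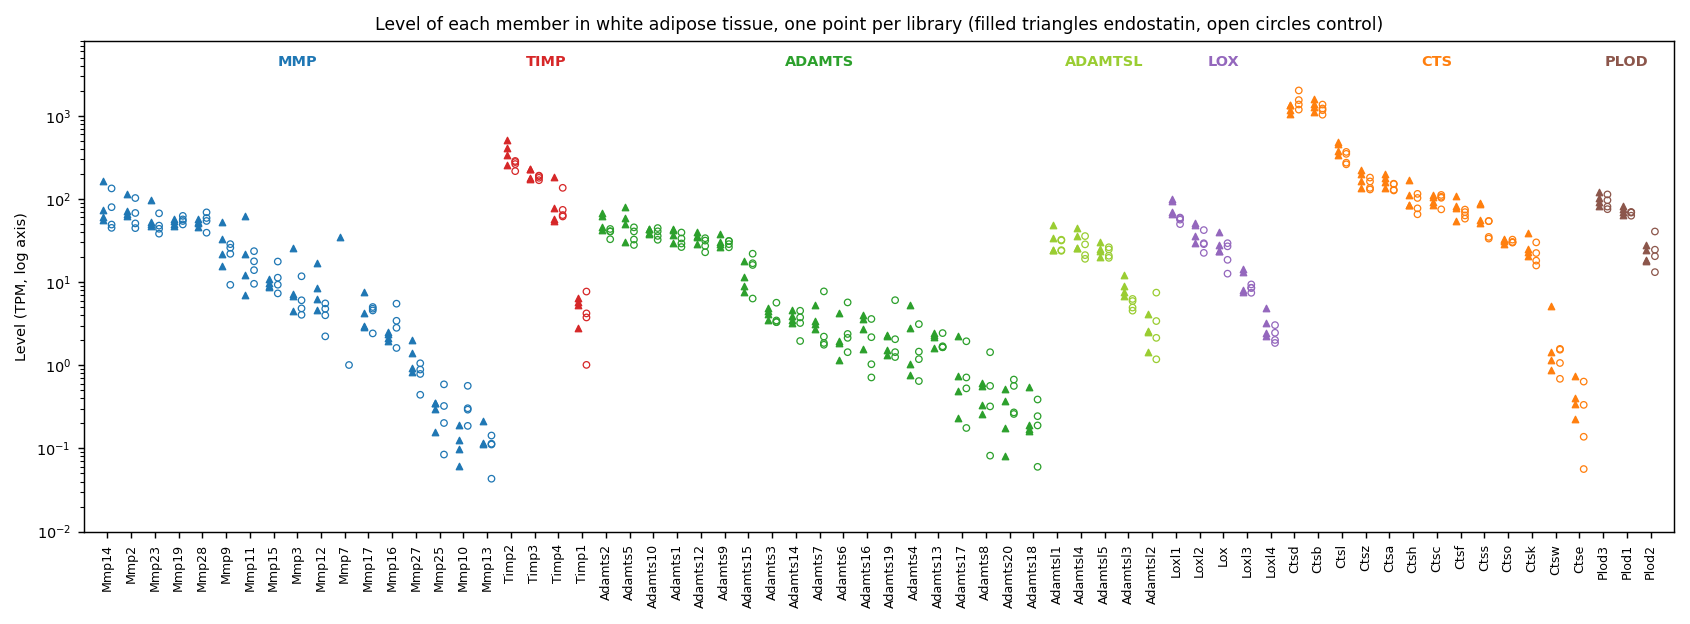
Level in TPM on a log axis of the genes with counts in the files, by class and in order of mean level, with 1 point per library (filled triangles endostatin, open circles control). Ctsg, Mmp8 and Mmp24, the genes with counts but the lowest mean TPM, are left out. Libraries at 0 cannot be drawn on this axis. Ctsd and Ctsb lie at 1031 TPM or above in all 8 libraries, and Mmp7 has 1 triangle at 35.2 TPM and 1 circle at 1.01 TPM.

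Transcript types limit what some of these levels mean. Ctsb had 36.8% of its TPM on its protein-coding transcript, with most of the rest on a transcript annotated as retaining an intron, and Adamts10 had 24.1%. The median over the 62 genes tested was 88.4%, and 30 of them had over 90%. The protein-coding transcript of Ctsb held 441 to 542 TPM in endostatin libraries and 377 to 477 TPM in control libraries. On this scale it lay below the main protein-coding transcript of Ctsd. That transcript held 975 to 1279 TPM in endostatin libraries and 1123 to 1850 TPM in control libraries.

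Of the 76 genes, 14 did not pass the count filter and were not tested. No count was seen in any library for Ctsq, Ctsj, Ctsm and Ctsr, which belong to a rodent group of placental cathepsins, or for Mmp1b, Mmp20 (enamelysin of tooth enamel) and Mmp21. A count of 0 allows up to 3 counts, or 0.126 to 0.19 CPM in a single library, for counting error only. The neutrophil enzymes were also near 0: Ctsg had 4 counts over all libraries and Mmp8 had 13, and the other untested genes apart from Mmp7 had 12 to 60. Mmp13, the main interstitial collagenase of rodents, had 0, 7, 3 and 3 counts in endostatin 1 to 4, against 3, 3, 1 and 4 counts in control 1 to 4.

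The untested metalloproteinases are mostly neighbours. Of the 22 Mmp genes, 9 lie together on chromosome 9, where 3 were tested, and 13 lie elsewhere, where 11 were tested. Promoters of 52 of the 76 genes were found in a RefSeq table (GRCm38.p6), 56 promoters in all, and the 250 bases before each start were searched on both strands for the AP-1 element TGANTCA, which the Fos and Jun factors bind and which the collagenase and stromelysin promoters are known for. It was present in 7 of 56 promoters (12.5%), against 6.75% of 32851 promoters in the table. All 7 belong to Mmp genes on chromosome 9 (7 of 9 genes), and it was absent from the 9 promoters of Mmp genes elsewhere. The element with 15 bases on either side is printed because these neighbours share it while their levels differ, with the element in capitals, read along the gene's strand.
Mmp3: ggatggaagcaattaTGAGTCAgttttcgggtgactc
Mmp12: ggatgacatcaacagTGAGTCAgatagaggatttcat
Mmp7: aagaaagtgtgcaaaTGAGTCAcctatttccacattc
Mmp13: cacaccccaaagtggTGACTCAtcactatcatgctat
Mmp10: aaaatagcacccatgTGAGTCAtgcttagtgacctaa
Mmp1b: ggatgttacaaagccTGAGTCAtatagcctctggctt
Mmp20: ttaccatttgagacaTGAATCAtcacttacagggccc
The windows are chr9:7445761-7445797 (Mmp3, plus strand), chr9:7347315-7347351 (Mmp12, plus), chr9:7692012-7692048 (Mmp7, plus), chr9:7272464-7272500 (Mmp13, plus), chr9:7502264-7502300 (Mmp10, plus), chr9:7388098-7388134 (Mmp1b, minus) and chr9:7628121-7628157 (Mmp20, plus). Of these 7 genes, Mmp3 and Mmp12 passed the count filter, at means of 8.87 and 6.59 TPM over all libraries. Mmp10, Mmp13, Mmp1b and Mmp20 stayed below 1 TPM in every library.

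A second search was for TCACGTGA, an E-box of the kind that the lysosomal regulator TFEB binds. It can share 3 bases with either end of the AP-1 element, but 0 of the Mmp promoters held it, and all AP-1 matches lie in Mmp promoters. It was present in 2 of 15 cathepsin promoters (13.3%), against 0.785% of all promoters in the table. The windows belong to Ctsd, an abundant cathepsin, and to Ctsa, a lysosomal carboxypeptidase, with the E-box in capitals.
Ctsd: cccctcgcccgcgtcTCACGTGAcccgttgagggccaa
Ctsa: acaatgagcaaactgTCACGTGAtgcag
They are chr7:142387904-142387941 (minus strand) and chr2:164833745-164833772 (plus strand). A match is a description of the letters, and binding was not measured.

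No gene of the 7 classes passed the threshold between endostatin and control. In edgeR's quasi-likelihood test with a batch term, 0 of 62 genes had an adjusted p under 0.05 (0.0% of the 15184 features tested), and the adjusted p of each was 1.00. DESeq2 and limma-voom, with or without sample weights, also called 0 of the 62. At an unadjusted p under 0.05 there were 6 of 62, all with positive log2 fold changes: Loxl1, Ctss, Loxl2, Adamts2, Mmp12 and Timp2. This count depended on single libraries: it was 1 without control 4, 2 without endostatin 3, 9 positive and 1 negative without control 2, and 3 positive and 3 negative without control 3, with 1 to 9 positive and 0 to 3 negative over all 21 alternatives. It was 3 without endostatin 1. The background at that level was 3.19% of features, 2.3% with positive (349 features) and 0.896% with negative values (136 features). That background also moved with the libraries left out. There were 612 positive and 247 negative features without control 2, 317 and 618 without control 3, and 204 and 164 without control 4. Without endostatin 3 there were 299 positive and 103 negative features, and without endostatin 1 there were 344 and 145. The CPM of the groups did not overlap for 1 of the 62 genes, Loxl1, against 1.64% of features (0.942% with endostatin above control and 0.698% with endostatin below). The library with the highest CPM was endostatin 4 for 23 of the 62 genes, against 17.5% of features, and control 3 for 13, against 24.6% of features. Endostatin 3 was highest for 15 of them, against 12.0% of features. Log2 fold changes here are endostatin minus control ± SE, and in bulk tissue fewer cells of a type and less RNA per cell cannot be told apart.

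Values leaned to the positive side. Of 62 genes, 45 had a positive log2 fold change (72.6%), against 46.6% of all features, and the median was 0.17, against -0.01 over all features. The class medians were 0.37 for lysyl oxidases (5 of 5 positive), 0.20 for metalloproteinases (10 of 14), 0.18 for Timp genes (3 of 4) and 0.18 for cathepsins (9 of 12). They were 0.16 for Adamts-like genes (4 of 5), 0.13 for Adamts genes (12 of 19) and 0.04 for lysyl hydroxylases (2 of 3). Without control 3 and endostatin 4, the libraries with the most oviduct and uterus transcripts, the median was 0.09 and 41 of 61 were positive; the Mmp median was then 0.04 and the cathepsin median 0.01, while the lysyl oxidase median was 0.39. Leaving out endostatin 4 alone gave a Mmp median of -0.08, and leaving out control 3 alone gave a cathepsin median of 0.01 and a Plod median of -0.05. The Timp median was 0.07 without endostatin 2, the Adamts-like median 0.08 without endostatin 3, the Adamts median 0.05 without control 4 and 0.21 without control 3, and the median of all 62 genes 0.08 without endostatin 4. Without control 2 the Mmp median was 0.40, the Adamts-like median 0.25 and the median of all 62 genes 0.26, and without endostatin 1 the Timp median was 0.29 and the cathepsin median 0.28. Of the 36 log2 fold changes recomputed for single genes, 29 moved by over 1.5 times or changed sign when 1 library was left out.

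**Figure D2:**
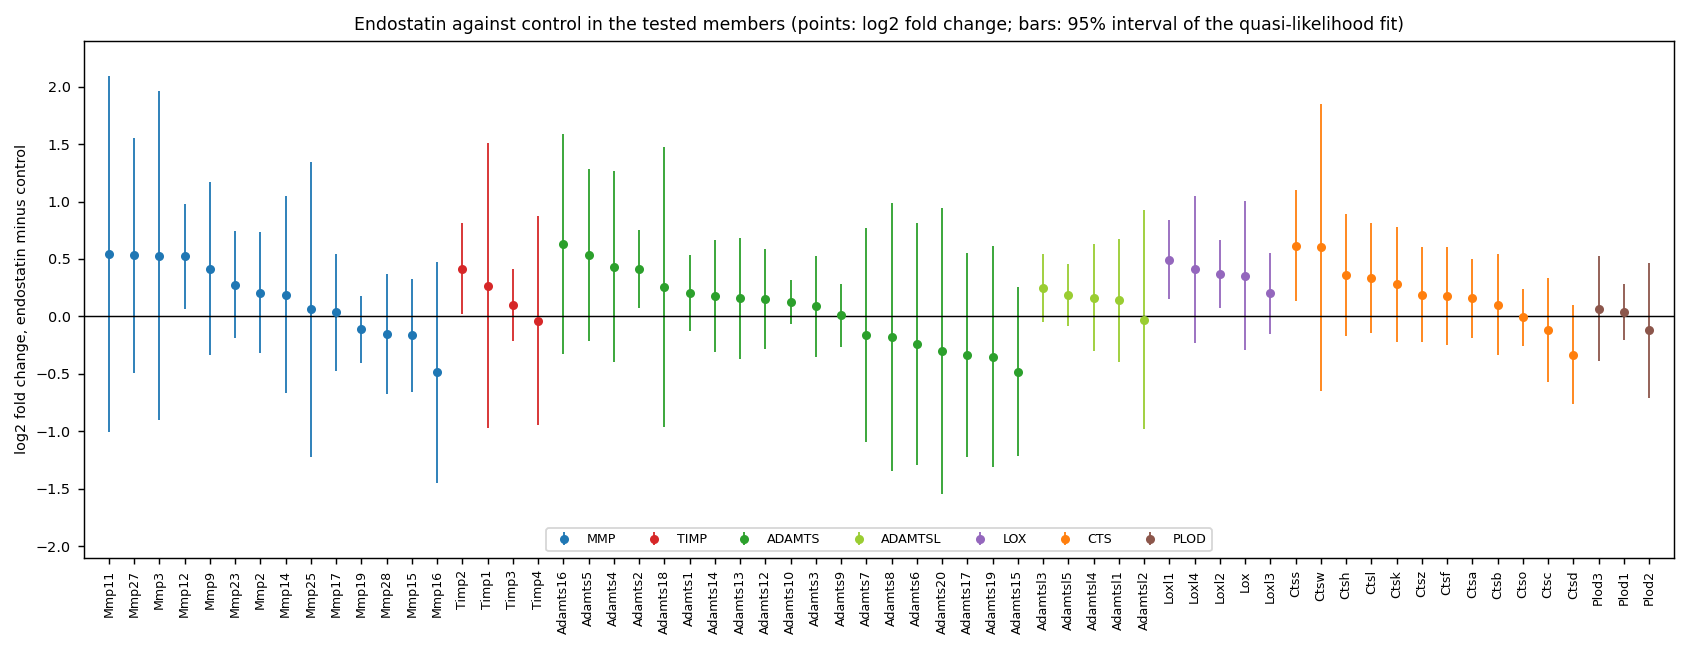
Log2 fold change, endostatin minus control, of the 62 tested genes, grouped by class (points) with the 95% interval of the quasi-likelihood fit (bars). The intervals of Loxl1, Loxl2, Ctss, Adamts2, Mmp12 and Timp2 lie above 0, none lies below 0, and no adjusted p is under 0.05.

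The lysyl oxidases are copper enzymes that oxidise lysines of collagen and elastin. Loxl1, needed for elastic fibres in mice, had 129, 122, 179 and 164 CPM in endostatin 1 to 4, against 113, 115, 93.9 and 96.0 CPM in control 1 to 4. Every endostatin library lay above every control library, with the widest gap in batch 2. Its log2 fold change was 0.49 ± 0.15, with a 95% interval from 0.15 to 0.84 (unadjusted p = 0.0106, edgeR adjusted p = 1.00). It was 0.85 in batch 2 and 0.14 in batch 1 (unadjusted p of the difference = 0.00263, edgeR adjusted p = 0.997). It stayed between 0.37 and 0.59 over 21 alternative settings, with an unadjusted p of at most 0.048.

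Loxl2, which crosslinks collagen IV of basement membranes, had 99.7, 84.0, 123 and 119.5 CPM in endostatin 1 to 4, against 65.3, 86.0, 99.8 and 77.5 CPM in control 1 to 4. The groups overlap, since control 2 lies above endostatin 2 and control 3 also above endostatin 1, and the log2 fold change was 0.37 ± 0.13. Lox, the founding member of the family, had 64.6, 64.3, 73.7 and 102 CPM in endostatin 1 to 4, against 86.8, 52.6, 63.5 and 35.7 CPM in control 1 to 4. Control 1 lies above 3 of 4 endostatin libraries, and the log2 fold change of 0.35 ± 0.28 was 0.82 in batch 2 and -0.11 in batch 1. It was 0.11 without control 4 and 0.61 without control 1. Loxl3 and Loxl4, relatives at lower levels, had log2 fold changes of 0.20 ± 0.15 (0.08 without endostatin 4) and 0.41 ± 0.28 (0.16 without endostatin 3). The summed level of the 5 genes was 129 to 199.5 TPM in endostatin libraries and 102 to 140.1 TPM in control libraries.

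Lysyl oxidases are made by fibroblasts, and fibroblast markers also leaned to positive values. All 7 of the 7 markers of fibroblasts and progenitors had positive values, none was at 0 in any library, and their sum was 2371 to 4097 TPM in endostatin libraries and 1978 to 3007 TPM in control libraries. Their part in the lysyl oxidase values was not tested. Plod1, Plod2 and Plod3, which hydroxylate the lysines that lysyl oxidases act on, had log2 fold changes of 0.04 ± 0.10, -0.12 ± 0.25 and 0.07 ± 0.20. Plod1 had 104, 118, 129 and 108 CPM in endostatin 1 to 4, against 114, 113, 97.9 and 122 CPM in control 1 to 4. Its interval, -0.20 to 0.28, bounds the difference more closely than those of Plod2 (-0.71 to 0.47) and Plod3 (-0.39 to 0.52).

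**Figure D3:**
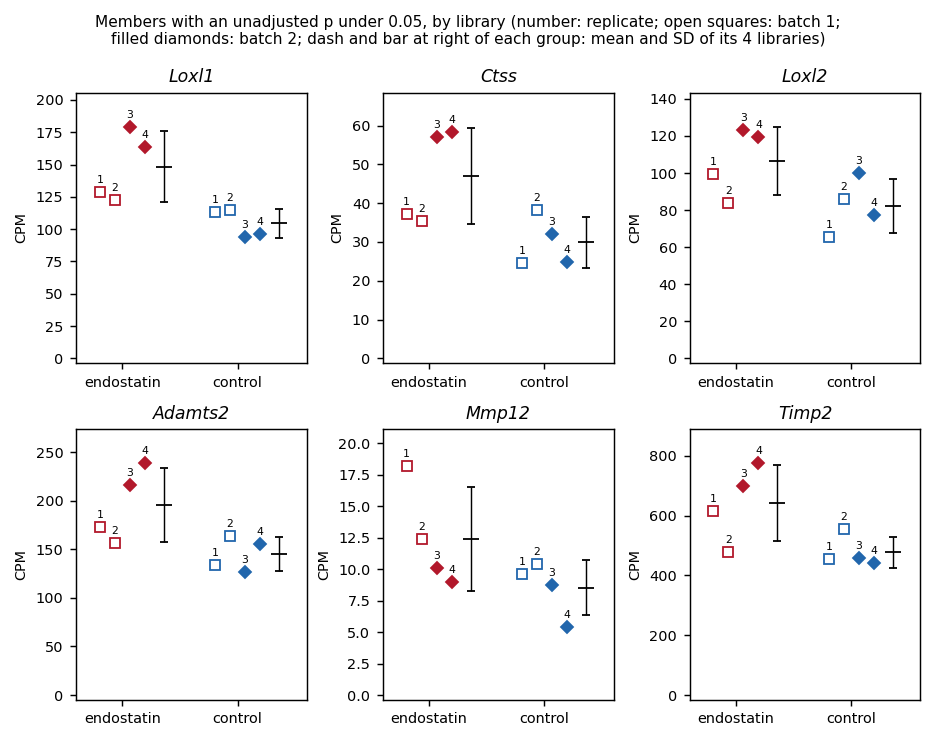
CPM by library of the 6 genes with an unadjusted p under 0.05, endostatin left of control, with the replicate number at each point (open squares batch 1, filled diamonds batch 2) and the mean and SD of each group at its right. Loxl1 is the gene whose groups do not overlap, and Mmp12 is highest in endostatin 1 at 18.2 CPM.

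Among inhibitors, Timp2 had 616, 478, 698 and 776 CPM in endostatin 1 to 4, against 454, 555, 458 and 441 CPM in control 1 to 4. The groups overlap because control 2 lies above endostatin 2. The log2 fold change was 0.41 ± 0.17, with an interval from 0.02 to 0.81 (edgeR unadjusted p = 0.0417, adjusted p = 1.00), and 0.71 in batch 2 against 0.12 in batch 1. Timp3, which binds to the matrix and also inhibits Adamts enzymes, had 435, 544, 542 and 409 CPM in endostatin 1 to 4, against 455, 479.9, 409.9 and 455 CPM in control 1 to 4, a log2 fold change of 0.10 ± 0.13. Timp4, abundant in fat, had 92.5, 138, 246 and 81.6 CPM in endostatin 1 to 4, against 139, 113, 87.6 and 227 CPM in control 1 to 4. Its high libraries, endostatin 3 and control 4, are in different groups, and the log2 fold change was -0.04 ± 0.39. Timp1 had a log2 fold change of 0.27 ± 0.54, with 1.015 to 2.27 CPM in endostatin libraries and 0.384 to 2.49 CPM in control libraries.

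The gelatinases and the membrane activator differed between groups by less than they varied within them. Mmp2 had 116, 104, 106 and 182 CPM in endostatin 1 to 4, against 80.6, 118, 149.9 and 89.6 CPM in control 1 to 4, a log2 fold change of 0.21 ± 0.23. Mmp14 had 99.3, 73.7, 79.8 and 209 CPM in endostatin 1 to 4, against 64.5, 109, 154 and 67.3 CPM in control 1 to 4, a log2 fold change of 0.19 ± 0.37. Both were highest in endostatin 4 and next highest in control 3, the libraries with the most oviduct and uterus transcripts. Across the 8 libraries, the log2 CPM of Mmp14 and Mmp2 had a Pearson correlation of 0.98 and a Spearman correlation of 1.00, and the Pearson value was 0.91 in the 6 libraries without that pair; Mmp2 was the closest of 61 genes. This describes libraries that share group, batch and tissue makeup. Without endostatin 4 the log2 fold change of Mmp14 was -0.19 and that of Mmp2 was 0.02. Mmp9, the gelatinase of myeloid cells, had 30.5, 27.8, 53.5 and 77.1 CPM in endostatin 1 to 4, against 17.9, 44.6, 30.6 and 38.2 CPM in control 1 to 4, a log2 fold change of 0.42 ± 0.33. That value was 0.20 without endostatin 4 and 0.84 without control 2.

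Other metalloproteinases peaked in 1 library. Mmp3, stromelysin-1, had 4.19, 6.52, 6.62 and 23.2 CPM in endostatin 1 to 4, against 4.17, 11.6, 4.98 and 4.77 CPM in control 1 to 4. Its log2 fold change was 0.53 ± 0.62, and -0.15 without endostatin 4. Mmp11, stromelysin-3, named after its values were seen, had 68.7 CPM in endostatin 4, against 7.80 to 23.0 CPM in the other endostatin libraries and 11.0 to 28.1 CPM in control libraries. Mmp7 (matrilysin, a protease of epithelia) had 312 counts in endostatin 4, 8 counts in control 3 and 0 in the other 6 libraries, and was not tested. Of the 9 oviduct and uterus genes, Ltf stood at 339 CPM in endostatin 4 and 86.1 CPM in control 3, while Pgr stood at 13.8 CPM in endostatin 4 and 225 CPM in control 3 and Foxj1 was at 0 in endostatin 4. Their part in the Mmp values was not tested.

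**Figure D4:**
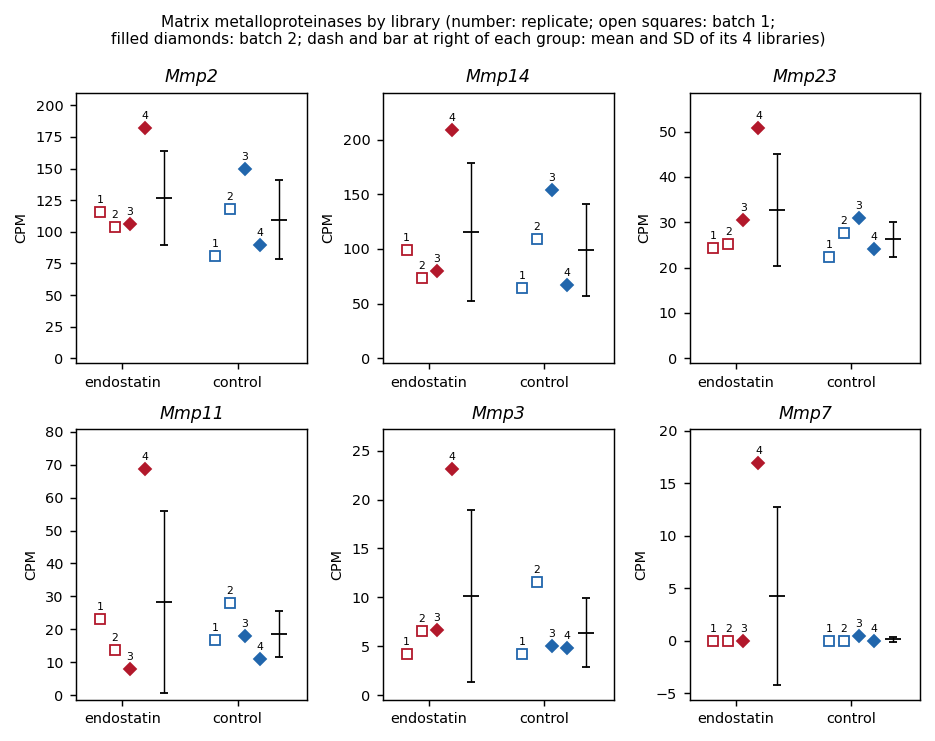
CPM by library of 6 metalloproteinases, endostatin left of control, with the replicate number at each point (open squares batch 1, filled diamonds batch 2) and the mean and SD of each group at its right. Endostatin 4 is the highest library in all 6 panels, at 182 CPM for Mmp2, 23.2 CPM for Mmp3 and 16.9 CPM for Mmp7. The 6 were chosen for display, Mmp11 after its values were seen. Of the tested metalloproteinases not drawn, Mmp9, Mmp17 and Mmp27 were also highest in endostatin 4. Mmp12, Mmp15, Mmp16, Mmp19, Mmp25 and Mmp28 were highest in other libraries.

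Mmp12, the macrophage elastase, had 18.2, 12.4, 10.1 and 8.94 CPM in endostatin 1 to 4, against 9.64, 10.4, 8.74 and 5.37 CPM in control 1 to 4. Endostatin 1 stands highest, and the other libraries overlap. The log2 fold change was 0.52 ± 0.20 (edgeR unadjusted p = 0.0295, adjusted p = 1.00), with 0.43 in batch 2 and 0.61 in batch 1. The files split this gene between protein-coding transcripts and a transcript annotated as retaining an intron. The retained-intron transcript stood at 2.50 to 3.96 TPM in endostatin libraries and 1.96 to 3.70 TPM in control libraries. The protein-coding transcripts had 163, 47, 67 and 15 counts in endostatin 1 to 4, against 10, 20, 9 and 3 counts in control 1 to 4. There, 3 of 4 endostatin libraries lie above every control library. Counting protein-coding transcripts only, an alternative chosen after the data were seen, gave a log2 fold change of 2.50 (unadjusted p = 0.0044, edgeR adjusted p = 1.00), over 1.5 times the value from all transcripts.

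The remaining named metalloproteinases had intervals that include 0. Mmp23, a membrane-tethered enzyme, had 24.3, 25.1, 30.6 and 50.8 CPM in endostatin 1 to 4, against 22.3, 27.5, 31.0 and 24.1 CPM in control 1 to 4, a log2 fold change of 0.27 ± 0.20, and 0.05 without endostatin 4. Mmp19, a broad-spectrum enzyme of the matrix, had 74.5 to 87.9 CPM in endostatin libraries and 67.6 to 100.5 CPM in control libraries, a log2 fold change of -0.11 ± 0.13. Mmp16, a membrane-type relative of Mmp14, had 2.03 to 4.06 CPM in endostatin libraries and 2.08 to 8.90 CPM in control libraries, with control 3 highest. Its log2 fold change of -0.49 ± 0.42 was -0.04 without control 3.

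Among Adamts proteases, the procollagen N-proteinase Adamts2, which trims fibrillar procollagens so that they can form fibrils, had 173, 156, 216 and 239 CPM in endostatin 1 to 4, against 134, 164, 127 and 155 CPM in control 1 to 4. Control 2 lies above endostatin 2, so the groups overlap. The log2 fold change was 0.42 ± 0.15, with an interval from 0.08 to 0.76 (edgeR unadjusted p = 0.0223, adjusted p = 1.00), and 0.69 in batch 2 against 0.14 in batch 1. The other N-proteinases of fibrillar procollagens, Adamts3 and Adamts14, named for that role, had 0.09 ± 0.19 and 0.18 ± 0.21.

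Adamts5 and Adamts15, which cleave aggrecan and versican, had intervals that include 0. Adamts5 had 375, 317, 499.8 and 181 CPM in endostatin 1 to 4, against 316, 186, 179.8 and 269.8 CPM in control 1 to 4. Endostatin 4 is among its lowest libraries and endostatin 3 the highest, and the log2 fold change of 0.53 ± 0.32 was 0.16 without endostatin 3. Adamts15 had 25.6, 28.7, 58.9 and 36.9 CPM in endostatin 1 to 4, against 59.8, 21.9, 46.9 and 77.3 CPM in control 1 to 4, a log2 fold change of -0.48 ± 0.32, and -0.11 without control 1. Adamts10, which binds fibrillin, had 0.13 ± 0.08 over all transcripts, and 0.44 over protein-coding transcripts only (edgeR unadjusted p = 0.00724, adjusted p = 1.00). Its protein-coding transcripts, looked at after the data were seen, summed to 11.5, 10.9, 10.7 and 11.0 TPM in endostatin 1 to 4, against 8.74, 7.32, 8.38 and 7.87 TPM in control 1 to 4. The groups do not overlap on that scale, but they overlap in CPM over all transcripts. The share of all features without overlap on the protein-coding scale was not determined, so how unusual this is cannot be said. Adamts17 had -0.34 ± 0.38 and 0.01 without control 3, where it stood highest at 3.10 CPM.

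Adamts-like proteins lack the protease domain and bind the matrix. Adamtsl3 had 19.3, 16.0, 22.5 and 23.1 CPM in endostatin 1 to 4, against 15.0, 18.1, 15.8 and 18.9 CPM in control 1 to 4. Endostatin 2 lies within the control values, and the log2 fold change was 0.25 ± 0.13. It was 0.15 without control 3, and 0.66 with offsets for transcript length (edgeR unadjusted p = 0.00217, adjusted p = 0.999). Adamtsl5 had 25.0, 24.5, 30.9 and 25.2 CPM in endostatin 1 to 4, against 23.3, 26.0, 21.5 and 22.0 CPM in control 1 to 4, a log2 fold change of 0.19 ± 0.12, and 0.08 without endostatin 3. Adamtsl4, involved in fibrillin microfibrils, had 0.16 ± 0.20, and Adamtsl1 had 0.14 ± 0.23 and -0.13 without endostatin 4, where it stood highest at 109 CPM. Adamtsl2 had -0.03 ± 0.41, with control 1 highest at 8.22 CPM.

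The cathepsins are of several catalytic kinds. Of 10 tested cysteine cathepsins, 8 had positive values, with a median of 0.23, while Ctsd, the aspartic cathepsin, had -0.34 ± 0.19. Ctsd had 1307, 1548, 1480.0 and 1124 CPM in endostatin 1 to 4, against 1901, 1398, 1971 and 1617 CPM in control 1 to 4. Control 2 lies below endostatin 2 and endostatin 3, and the interval ran from -0.77 to 0.10. Ctsb had 1418, 1603, 1790.2 and 1564 CPM in endostatin 1 to 4, against 1693, 1519, 1089 and 1658 CPM in control 1 to 4. Control 3, its lowest library, is the highest for Ctsd, and the log2 fold change of Ctsb was 0.10 ± 0.19. Ctsc, the activator of granule proteases, had 109 to 114 CPM in endostatin libraries and 71.2 to 139.7 CPM in control libraries, a log2 fold change of -0.12 ± 0.20.

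Ctss, a cathepsin of antigen-presenting cells that stays active at neutral pH, had 37.1, 35.5, 56.9 and 58.3 CPM in endostatin 1 to 4, against 24.6, 38.2, 32.0 and 24.7 CPM in control 1 to 4. Control 2 lies above both endostatin libraries of batch 1, and both endostatin libraries of batch 2 lie above every control library. The log2 fold change was 0.62 ± 0.21, with an interval from 0.13 to 1.10 (edgeR unadjusted p = 0.0191, adjusted p = 1.00), and 1.02 in batch 2 against 0.21 in batch 1. Macrophage markers were likewise highest in endostatin 4, endostatin 3 and control 2. All 8 of 8 had positive values, none was at 0 in any library, and their sum was 871, 911, 1489 and 1562 TPM in endostatin 1 to 4, against 707, 1049, 780.2 and 808 TPM in control 1 to 4. Their part in the Ctss values was not tested.

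Ctsl and Col18a1 had intervals that include 0. Ctsl, which can release endostatin, had 272, 320.0, 384 and 396 CPM in endostatin 1 to 4, against 335, 251, 190.2 and 305 CPM in control 1 to 4. Control 1 lies above endostatin 1 and endostatin 2, and the log2 fold change of 0.34 ± 0.21 had an interval from -0.14 to 0.81. It was 0.14 without control 3. Col18a1, the source of endostatin, had 196, 206, 286 and 208 CPM in endostatin 1 to 4, against 205, 148, 262 and 210.0 CPM in control 1 to 4, a log2 fold change of 0.13 ± 0.15, and 0.03 without control 2. A p that misses the threshold does not show that the levels were equal: the interval for Col18a1 ran from -0.23 to 0.48.

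Positive values were more frequent in batch 2. Over the 62 genes the middle value was 0.39 in batch 2, against -0.01 in batch 1, with 47 positive in batch 2 and 29 in batch 1, and 28 had the same sign in both. Of all 15184 features tested, 7110 were positive in batch 2 and 7683 in batch 1, and 7249 had the same sign in both. The medians over all features were -0.02 in batch 2 and 0.00 in batch 1. For cathepsins the median was 0.44 in batch 2 against -0.08 in batch 1, and for lysyl oxidases 0.49 in batch 2 against 0.14 in batch 1. In the test of the batch by treatment interaction, 0 of 62 genes passed (0.0% of features); 3 had an unadjusted p under 0.05, Loxl1, Ctss and Loxl3, against 3.47% of features (2.19% positive and 1.28% negative). DESeq2 and limma-voom also called 0 of the 62. Within each batch a group has 2 libraries, and batch 2 holds the 2 libraries with the most oviduct and uterus transcripts, with endostatin 1 of batch 1 next at 46.4 TPM. Markers of several other cell types also had higher median log2 fold changes in batch 2, but not all did. The medians of skeletal muscle, of oviduct and uterus and of cytotoxic lymphocyte markers were lower in batch 2 than in batch 1. That of endothelium markers was nearly the same in both. The macrophage median was 0.83 in batch 2, against -0.01 in batch 1, and the fibroblast and progenitor median 0.58 in batch 2, against 0.01 in batch 1. The mesothelium median was 0.76 in batch 2, against -0.06 in batch 1; all 5 of 5 markers had positive values over both batches, none was at 0, and they summed to 215 to 377 TPM in endostatin libraries and 197 to 287 TPM in control libraries. The mast cell median was 0.88 in batch 2, against 0.04 in batch 1, with 5 of 5 tested markers positive, Tpsb2 at 0 in control 4, and sums of 42.1 to 72.2 TPM in endostatin libraries and 29.4 to 47.5 TPM in control libraries. Their part in the values of the 62 genes was not tested.

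**Figure D5:**
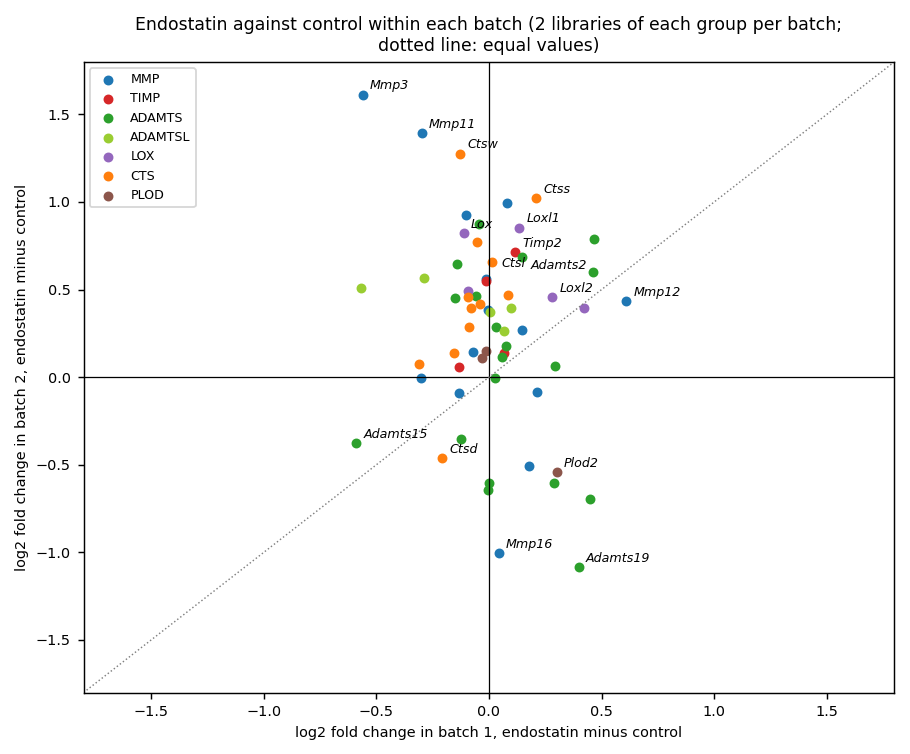
Log2 fold change, endostatin minus control, of the 62 tested genes in batch 2 (vertical axis) against batch 1 (horizontal axis), colored by class; the dotted line marks equal values. More points lie above 0 in batch 2 (47 of 62) than in batch 1 (29 of 62), and Loxl1 lies at 0.85 in batch 2 and 0.14 in batch 1.

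Between batches, without regard to treatment, edgeR called 0 of 62 genes (0.0395% of features), and 5 had an unadjusted p under 0.05 against 9.96% of features (5.42% positive and 4.54% negative). DESeq2 called 1, Adamts4, an aggrecanase induced by inflammatory signals (log2 fold change 1.62, batch 2 minus batch 1, DESeq2 adjusted p = 0.00641, edgeR adjusted p = 0.413). Among all 15184 features, DESeq2 called 86 higher and 85 lower in batch 2. Adamts4 had 6.78, 12.5, 6.69 and 3.78 CPM in endostatin 3, endostatin 4, control 3 and control 4 of batch 2, against 1.90, 2.65, 1.67 and 3.03 CPM in endostatin 1, endostatin 2, control 1 and control 2 of batch 1. Every library of batch 2 lies above every library of batch 1. The share of all features split by batch in this way was not determined.

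The 27 tested genes outside the rule for naming had log2 fold changes from -0.35 (Adamts19) to 0.63 (Adamts16), 19 positive and 8 negative, with an unadjusted p of at least 0.154 in edgeR's test. Adamts16 had 6.60, 4.18, 8.55 and 9.97 CPM in endostatin 1 to 4, against 1.85, 5.95, 7.63 and 3.07 CPM in control 1 to 4, so the groups overlap. Adamts19 was highest in control 3, at 14.6 CPM, against 3.74 to 6.22 CPM in endostatin libraries and 3.67 to 5.97 CPM in the other control libraries.

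Of genes that work beside these enzymes, none passed the threshold (0 called in each of 5 lists). In the plasminogen system, whose protease plasmin activates several metalloproteinases, 9 of 10 genes were positive, with a median of 0.22. Plaur, the urokinase receptor, had a log2 fold change of 0.41 ± 0.17, and S100a10, part of a cell-surface plasminogen receptor, had -0.02. Plg, the plasminogen gene, had 7.19, 12.7, 0 and 21.8 CPM in endostatin 1 to 4, against 2.44, 1.69, 0.0553 and 0 CPM in control 1 to 4. Plasminogen is made in liver, and 5 hepatocyte genes gave sums of 250, 363, 19.0 and 700.0 TPM in endostatin 1 to 4, against 109, 71.3, 11.6 and 19.6 TPM in control 1 to 4; all 5 of 5 were positive, and Fgb was at 0 in endostatin 3 and control 3. Their part in the Plg values was not tested.

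Of ADAM and astacin proteases, 10 of 12 tested were positive, with a median of 0.10. The 2 with the smallest p lay on opposite sides. Adam12, a membrane protease of mesenchymal cells, had 58.3, 40.9, 43.8 and 41.4 CPM in endostatin 1 to 4, against 53.6, 79.0, 96.2 and 74.4 CPM in control 1 to 4. Endostatin 1 lies above control 1, and the other endostatin libraries lie below every control library. Its log2 fold change was -0.71 ± 0.20 (edgeR unadjusted p = 0.00692, adjusted p = 1.00). Adam8, a protease of leukocytes, had 6.30, 4.85, 12.1 and 11.9 CPM in endostatin 1 to 4, against 4.05, 5.60, 5.86 and 4.33 CPM in control 1 to 4, a log2 fold change of 0.72 ± 0.26. Adam15 and Adam22, membrane proteins of the same family, had 0.22 and -0.10.

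Among 16 genes of collagen hydroxylation, folding and processing, 14 were positive, with a median of 0.13. Pcolce2 and Pcolce, enhancers of procollagen C-proteinase, had 0.58 ± 0.23 and 0.31 ± 0.15, while P4ha2, a prolyl hydroxylase subunit, and Colgalt2, which glycosylates hydroxylysine, had -0.12 and -0.04. Of other protease inhibitors 4 of 5 tested were positive (median 0.19), among them Cst3, cystatin C, which inhibits cysteine cathepsins, at 0.19 ± 0.16, and Serping1, the C1 inhibitor, at 0.36 ± 0.15, while Cstb, cystatin B, had -0.02. Of other matrix and lysosomal proteases and related enzymes 10 of 10 were positive (median 0.24). Hpse, heparanase, which cuts heparan sulfate chains, had 8.25, 8.18, 14.4 and 15.5 CPM in endostatin 1 to 4, against 6.07, 8.63, 7.13 and 6.63 CPM in control 1 to 4, a log2 fold change of 0.64 ± 0.23. Lgmn, the lysosomal protease legumain that processes cathepsins, had 0.36 ± 0.19.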

How the data were processed

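RNA of white adipose tissue was sequenced in 8 libraries, 4 from endostatin-treated and 4 from PBS-treated mice. Each deposited file lists, per transcript, an estimated count and a TPM value. The submitters' processing notes name Salmon, with which the authors made the estimated counts and the TPM, and the build GRCm39. Its version and index were not given in the sources used. Of 115620 transcript identifiers, 113710 (98.35%) matched GENCODE M21, used for gene names and types only, and 1910 without a match each stayed a separate feature. Mmp1a is a polymorphic pseudogene in that release and is not among the genes.

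Estimated counts were summed per gene, rounded, filtered with filterByExpr (15184 of 37046 features kept) and fitted with edgeR 4.0.16 in R 4.3.3 (TMM, quasi-likelihood test, terms for batch and treatment, two-sided, Benjamini-Hochberg over all features, threshold 0.05). The batch term and a batch by treatment interaction were tested the same way. SE is the log2 fold change divided by the square root of F. TPM was used for levels between genes. Reads that fit several transcripts are shared out by Salmon, which makes near-identical and overlapping genes uncertain. Intervals of log2 fold changes are 95% intervals of the fit, and the floor of 3 counts covers counting error only.

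The genes, lists and tests were chosen with earlier results of these data known. Named are all Timp, lysyl oxidase and Plod genes, the 3 of each other class with the highest mean TPM, up to 2 per class and direction with the smallest p and at least 1 CPM, and 8 genes for their roles (Mmp2, Mmp14, Mmp3, Mmp7, Mmp9, Mmp13, Ctsl, Ctsb). From the lists of related genes, up to 2 per direction are named, by smallest p. Genes named outside this rule are said to be, or stand for a count (Adamts4, Adamts16, Adamts19). Alternatives covered DESeq2 1.42.0 and its size factors, limma-voom (limma 3.58.1) with and without sample quality weights, library size only, other count filters, length offsets, no batch term, a replicate block, leaving out libraries, and protein-coding transcripts only. The protein-coding alternative was chosen after seeing the data. Scripts were tested on simulated data. Promoter windows come from RefSeq on GRCm38.p6, another build than that of the files.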

Additional observations from a re-analysis of the deposited data

Results flagged for a closer look

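In 9 of 76 group values checked, 1 library stood apart from the other 3 of its group (Dixon's test on CPM). Chance alone flags about 1 in 20 groups of independent, normally distributed values. CPM of many genes from the same libraries need not behave so, and 9 of 76 cannot be weighed against that rate. Endostatin 4 stood apart for Mmp2 at 182 CPM, against 104 to 116 CPM in the other endostatin libraries. It did so too for Mmp3 at 23.2 CPM, against 4.19 to 6.62 CPM, and for Mmp7 at 16.9 CPM, against 0 CPM. Control 3 stood apart for Mmp7 at 0.442 CPM, against 0 CPM in the other control libraries, and for Ctsc at 71.2 CPM, against 138 to 139.7 CPM. These libraries held the most oviduct and uterus transcripts, whose part in these values was not tested. Where the other 3 libraries of a group are at 0, as for Mmp7, any count is flagged.

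Endostatin 3 stood apart for Adamtsl5 at 30.9 CPM, against 24.5 to 25.2 CPM, and for Col18a1 at 286 CPM, against 196 to 208 CPM. Control 2 stood apart for Timp2 at 555 CPM, against 441 to 458 CPM in the other control libraries, and for Mmp3 at 11.6 CPM, against 4.17 to 4.98 CPM.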

How the results depend on the processing

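In 21 alternatives 0 of the tested genes of the 7 classes were called between endostatin and control, with a lowest adjusted p of 0.474. Of 756 log2 fold changes recomputed for the named genes, 44 changed sign, in 16 of 36 genes, and in 20 genes none did. In 34 of the 36, at least 1 alternative moved the value by over 1.5 times or changed its sign. Over all features the endostatin comparison gave 3 higher and 1 lower under DESeq2 and 1 higher with limma-voom and sample quality weights, against 0 with edgeR, where 3.19% had an unadjusted p under 0.05. The interaction gave 20 positive and 6 negative features under DESeq2, against 0 with edgeR.

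Between batches, edgeR called 1 feature higher and 5 lower in batch 2. DESeq2 called 86 higher and 85 lower (1 of the 62 genes), limma-voom 2 and 8, and sample quality weights 5 and 15. Scaling by library size alone gave 0 and 2, no count filter 4 higher, and protein-coding transcripts only 0 and 2. Leaving out control 3 and endostatin 4 gave 3 and 24, and leaving out control 1 and control 4 gave 0 and 0. Leaving out 1 library gave 0 to 2 higher and 0 to 16 lower.

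Signs turned as follows, as log2 fold changes of endostatin minus control. Without control 1 and control 4, the libraries with the most muscle transcripts, Adamts15 had 0.17, Adamtsl1 -0.0277, Adamtsl2 0.63, Ctsc 0.13, Mmp14 -0.21, Mmp19 0.0763, Mmp2 -0.0779, Timp1 -0.16 and Timp4 0.44. Without control 3 and endostatin 4, Adamtsl1 had -0.10, Ctsb -0.0253, Mmp3 -0.23 and Plod2 0.0876. Sample quality weights gave Adamtsl1 -0.0117, Ctsb -0.0126, Plod2 0.0542 and Plod3 -0.005. Adamtsl2 had 0.0041 with library size only, 0.0915 with limma-voom and 0.23 with protein-coding transcripts only, and Timp4 had 0.0517 with length offsets. Leaving out 1 library at a time gave -0.54 to 0.006 for Adamts17, -0.13 to 0.28 for Adamtsl1, -0.24 to 0.52 for Adamtsl2, -0.0251 to 0.34 for Adamtsl4, -0.0608 to 0.19 for Ctsb and -0.33 to 0.0531 for Ctsc. It gave -0.19 to 0.40 for Mmp14, -0.23 to 0.0065 for Mmp19, -0.15 to 1.10 for Mmp3, -0.05 to 0.0901 for Plod1, -0.38 to 0.0651 for Plod2, -0.10 to 0.21 for Plod3, -0.11 to 0.77 for Timp1 and -0.45 to 0.26 for Timp4. The settings that leave out libraries rest on fewer samples; for the other settings the cause was not tested.

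The replicate number as a block in place of batch also called 0 features and turned 1 named gene, Adamtsl2, to 0.10. Deviations from the group means of libraries with the same number correlated at 0.211, 0.144, -0.073 and -0.295 for replicates 1 to 4. With 4 libraries behind each group mean, these values cannot show whether libraries with the same number were paired. The count filter kept 14 of the 76 genes from being tested. Wide errors also occurred at higher levels: the SE of the log2 fold change was 0.67 for Mmp11, at a mean of 23.4 CPM, and 0.54 for Timp1, below 3 CPM in every library.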

Other observations

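Genes of different classes varied together over the 8 libraries, which share groups, batches and tissue makeup. For the gene with the highest TPM in each class, the closest 2 of the 61 other tested genes were found by the Pearson correlation of log2 CPM. Timp2 was closest to Adamts2 (0.93) and Ctss (0.93), and the values were 0.89 and 0.92 in the 6 libraries without control 3 and endostatin 4. Adamts2 was closest to Adamtsl3 (0.95, and 0.93 in the 6 libraries), and Loxl1 to Timp2 (0.90, and 0.87 in the 6 libraries). Plod3 was closest to Plod1 (0.89, and 0.80 in the 6 libraries) and Timp4 (0.88, and 0.89 in the 6 libraries). Adamtsl1 was closest to Mmp23 (0.92), a value that was 0.59 in the 6 libraries. Ctsd had no close partner by positive correlation: its highest value was 0.72, with Adamts20, and it was 0.29 in the 6 libraries. Genes with an opposite pattern were not looked for.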
